A study of Homo sapiens with 18 samples.

Results

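A comparison of the N6-methyladenosine (m6A) peaks of cells exposed to black phosphorus quantum dots (BPQD) with those of untreated cells is described here. Its members were all 14903 peaks of the authors' deposited table for this comparison, out of 27794 peaks in the tables of both materials of the study, and each peak was joined to input expression by its gene ID. The table for the other material, titanium dioxide (TiO2), held 12891 peaks and used the same control libraries. The peaks lay in 9480 genes, and 14767 of them (99.1%) were found in the expression table.

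The study asked whether nanomaterials alter RNA methylation in lung cancer cells. The cells carry the label A549, a line from a human lung adenocarcinoma, and were grown in DMEM/F-12 before RNA extraction with Trizol. Untreated control cells were compared with cells given 10 mg/L BPQD, particles of layered phosphorus a few nanometres across, for 24 h. Per group, 3 libraries were made from input RNA and 3 from RNA precipitated with an m6A antibody. No label says that the 3 came from separate cultures, so p-values of the input test measure only how these libraries vary, which may be technical. How the authors' p-values of peaks treat the 3 libraries is not known, so they are not read as a measure of variation between libraries or cultures. The TiO2 group, at 100 mg/L for 24 h, is used to set its peaks beside those of BPQD. Its 3 input libraries also entered the estimate of spread and the level filter of the input test.

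m6A is the most common internal methyl mark of mRNA. A nuclear complex of METTL3 and METTL14 with WTAP, VIRMA, ZC3H13, CBLL1 and RBM15 proteins writes it, ALKBH5 and FTO remove it, and YTH, IGF2BP and other proteins bind it or the RNA around it and act on splicing, stability and translation. In mRNA the mark is known to gather near stop codons and in long internal exons, in the sequence context GGAC. Antibodies to m6A also bind m6Am, a methylated adenosine next to the cap, which PCIF1 writes on transcripts that begin with A.

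Cells were checked against markers in the input libraries, in FPKM (fragments scaled by transcript length and library size). KRT18 had a mean of 581 in control and 407 in BPQD libraries and KRT8 had 324 and 237, while the epithelial keratin KRT19 had 0.358 and 0.133 and the cadherin CDH1 0.356 and 0.320. Genes known to be high in A549 were low: AKR1B10 did not pass 0.998 FPKM in any of the 9 input libraries of the series, AKR1C1 did not pass 1.14 and ALDH1A1 did not pass 0.116, and the lung factor NKX2-1 did not pass 0.0970. The identity of the cells is therefore given by label only. The summed level of 7 epithelial markers was 1160 to 1240 FPKM in control and 855 to 875 under BPQD, that of 8 fibroblast markers 29.3 to 29.8 and 13.9 to 24.8, that of 6 leukocyte markers 11.4 to 13.6 and 11.9 to 13.1, and that of 5 endothelial markers 3.05 to 3.70 and 1.22 to 1.36. PDGFRA, PTPRC, LYZ and the surfactant genes were at or near 0, but LUM (20.5 and 13.9 FPKM), CD68 (11.6 and 12.0), ABCA3 (11.5 and 9.59) and CDH5 (3.12 and 1.19), of the fibroblast, leukocyte, lung and endothelial lists, were not. Of the fibroblast list PDGFRB (3.19 and 1.75 FPKM), COL1A1 (3.14 and 2.09) and FAP (1.13 and 0.76) were also present. Only 3 of its 8 genes were under 1 FPKM in all 6 control and BPQD inputs. The part of these shifts in marker levels in the peak differences was not tested. Read numbers were not in the sources used here, so depth is unknown for every library.

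The first transcribed bases of some genes are shown because many 5' UTR peaks span an annotated start, and at the cap the antibody can also read m6Am. The peaks of the genes shown span from 180 bases (TM4SF1) to 28310 (SRXN1) on the genome. A wide peak over the start does not place its signal at the cap. They are RefSeq start sites on GRCh38.p14, 30 bases in the direction of transcription, for the 10 genes of smallest p among 16 genes of the naming rule whose called 5' UTR peak covered the start. The capital letter marks the first base.

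TM4SF1, called higher, chr3:149377620-149377649, minus strand: Agtggtgtttgctttctccaccagaagggc
HSP90B1, called lower, chr12:103930410-103930439, plus strand: Agtgggcggaccgcgcggctggaggtgtga
SRXN1, called higher, chr20:653171-653200, minus strand: Gcggcggcggcgacgatggggctgcgtgca
SCAF11, called higher, chr12:45990545-45990574, minus strand: Gagtagcggtggcttaagccgcgcggagca
RBM15B, called higher, chr3:51391285-51391314, plus strand: Gcgccgagtccttttgtccaagatggcggc
RBM15, called higher, chr1:110339377-110339406, plus strand: Gagactgtagaagagagagcaattggccaa
CENPF, called lower, chr1:214603195-214603224, plus strand: Agaagcgggcgaattgggcaccggtggcgg
NFKBIA, called lower, chr14:35404720-35404749, minus strand: Acagcagtccgtgccgccgtcccgcccgcc
ZEB1, called higher, chr10:31318417-31318446, plus strand: Attccgctctactaaggaggctgctggcaa
METTL3, called higher, chr14:21511311-21511340, minus strand: Attttccggttagccttcggggtgtccgcg

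Of these 10 starts 6 begin with A and 4 with G, and of all 16 the counts are 9 and 7. Starts with A are found among both higher and lower peaks. The motif GGAC, searched on the transcribed strand, stands at base 8 of the HSP90B1 start. Over all 1145 genes whose 5' UTR peak covered a RefSeq start, 607 (53%) began with A, against 45.5% of the 8307 protein-coding genes whose mean was at least 1 FPKM and 50.7% of 15843 protein-coding genes with a promoter in the RefSeq table. The share was 49.5% for the 275 genes with such a peak called higher and 54.5% for the 534 with one called lower. GGAC stood in the first 50 bases of 22.5% of the 1145 genes and of 19.9% of the 8307. These are shares of genes in 1 annotation, with no test, and the start used by these cells was not measured.

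A peak was called where the authors' deposited p-value was under 0.05. By this rule 9661 peaks (64.8%) were called, 5616 (37.7%) higher under BPQD and 4045 (27.1%) lower. Most folds were small. The median log2 fold change was 0.385 for peaks called higher and -0.327 for those called lower, in the authors' deposited table. Of the called peaks 2071 (21.4%) had a log2 fold under 0.2 in size and 1361 (14.1%) one of at least 1. The large changes were more one-sided, with 1005 of these 1361 (73.8%) higher. Another 1959 peaks had a log2 fold of at least 1 that was not called. The table gives no value per library, so its folds carry no error here.

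The peaks were annotated as 3' UTR (6772, 45.4%), exon (4397, 29.5%) or 5' UTR (3734, 25.1%). Direction differed between these classes. Of called 5' UTR peaks 1121 were higher and 1338 lower (45.6% higher), of exon peaks 1565 and 808 (66.0% higher), and of 3' UTR peaks 2930 and 1899 (60.7% higher). Exon peaks were called least often, 54.0% of them, and had the widest folds, with a median size of 0.767 on the log2 scale against 0.372 at the 5' UTR and 0.332 at the 3' UTR. In the TiO2 table, which shares the controls, 65.7% of called 5' UTR peaks were higher, as were 65.0% of exon and 60.6% of 3' UTR peaks.

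**Figure D1:**
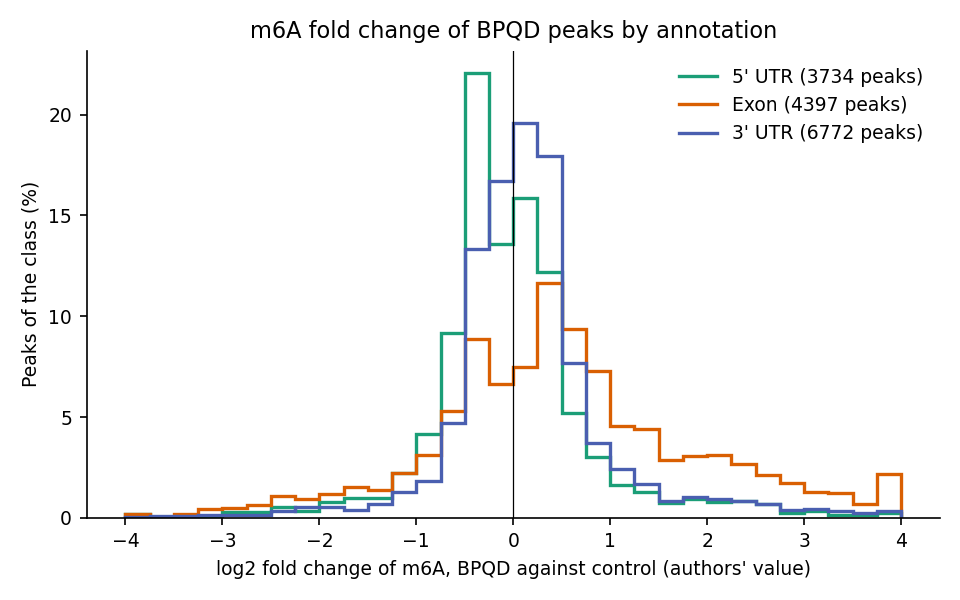
Distribution of the authors' log2 fold change of m6A (x axis, BPQD against control, bins of 0.25, with the 108 peaks beyond 4 in either direction put in the end bins) as the percentage of each annotation class (y axis), 1 line per class. The 5' UTR line peaks below 0, the 3' UTR line just above 0, and the exon line is broad with a long tail to the right.

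Position along the listed gene gave the same picture in finer steps. The first 10% of gene length held 2372 peaks (16.1%), and 37.9% of those called there were higher. The share was 70.5% of called peaks at 50% to 60% of gene length. The last 10% held 4472 peaks (30.3%), of which 1783 were called higher and 1265 lower (58.5% higher). All the other steps of 10% lay between 55.9% and 64.8%. Peaks were thus densest at the gene's end, and of these steps the first alone had more lower than higher calls.

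**Figure D2:**
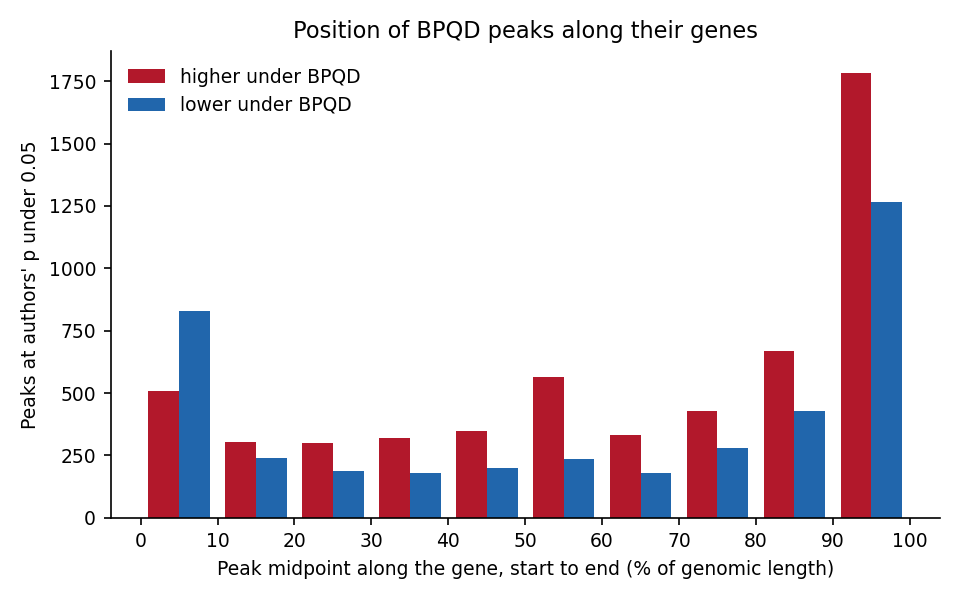
Number of peaks at the authors' p under 0.05 that were higher (red) or lower (blue) under BPQD (y axis), by the peak's midpoint in steps of 10% of the gene's genomic length from start to end (x axis). The first 10% has 507 higher and 829 lower peaks, and the last 10% 1783 and 1265.

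Exon peaks could be split by the exon the table lists. Internal exons held 1451 of them (33.0%), last exons 1130 (25.7%), the exon of 1-exon transcripts 1018 (23.2%) and first exons 798 (18.1%). Called peaks were higher in 52.7% at internal exons, 66.7% at first, 76.4% at last and 80.7% at 1-exon transcripts. The median level of the genes was 3.34 FPKM for internal, 1.3 for first, 1.21 for last exons and 0.839 for 1-exon transcripts. The part of gene level in these shares was not tested. For 991 exon peaks (22.5%) the listed exon belonged to another gene than the one the peak was listed for, and without these 57.2% of all called peaks were higher, against 58.1% with them.

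Peaks spanned a median of 658 bases from start to end, with quartiles of 269 and 2308, and 6001 (40.3%) were wider than 1000 bases and 2212 (14.8%) wider than 5000. The 5' UTR peaks were widest, with a median of 1316 bases, against 647 at the 3' UTR and 451 in exons. A span on the genome can include introns. The widest peak, at chrX:37349330-38666260, spanned 1316931 bases and had no gene name. It was followed by 5' UTR peaks listed for RPA3, a subunit of the single-strand DNA binding protein RPA (330525 bases), and TFPI2, a protease inhibitor (315021 bases). Both run beyond the listed gene, which lies at chr7:7636518-7718607 for RPA3 and chr7:93885396-93890753 for TFPI2. Introns of the listed gene thus do not account for their whole span, and the gene of these peaks is uncertain. The narrowest were listed for ADAM10, a membrane protease (56 bases, in an exon of another gene), the pseudogene HMGA1P4 (57) and ELOB, the elongin B gene (58). Peaks called higher had a median of 1200 bases, those called lower 660 and those not called 324. The annotated start site lay inside 5068 peaks (34.0%), including 79.8% of 5' UTR peaks and 13.0% of 3' UTR peaks.

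**Figure D3:**
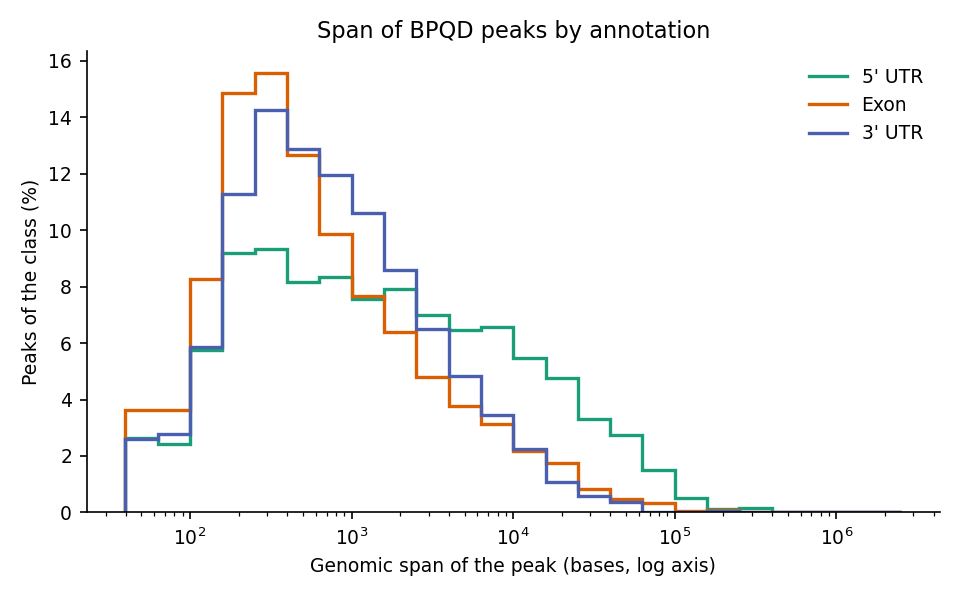
Genomic span of the peaks (x axis, bases, log axis) as the percentage of each annotation class (y axis). The 5' UTR line extends furthest to the right (median 1316 bases), and the exon line lies furthest to the left (median 451 bases).

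The level of the gene went with the direction of its peaks. In genes with a mean of 1 to 3 FPKM over control and BPQD inputs, 69.2% of called peaks were higher, in genes of 10 to 30 FPKM 46.5%, in those of 30 to 100 FPKM 27.8%, and at 100 FPKM or more 20.1% (34 higher, 135 lower). The share of peaks that were called was 34.1% under 0.1 FPKM and 83.3% at 100 or more, and the median size of the log2 fold was 1.70 and 0.235 in these bins. Within every one of the 7 level bins the share of higher calls was lower at the 5' UTR than at the 3' UTR, for example 8.57% against 28.7% at 100 FPKM or more. Exon peaks had a larger share of higher calls than 3' UTR peaks in each bin under 10 FPKM. From 10 FPKM up their share was the smaller one, at 46.5% against 51.4% in the bin of 10 to 30 FPKM. The TiO2 peaks of all classes, set against the same controls, had shares of 76.0% at 1 to 3 FPKM and 22.1% at 100 or more. Depth and antibody recovery per library were not available, and their part in this gradient was not tested.

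**Figure D4:**
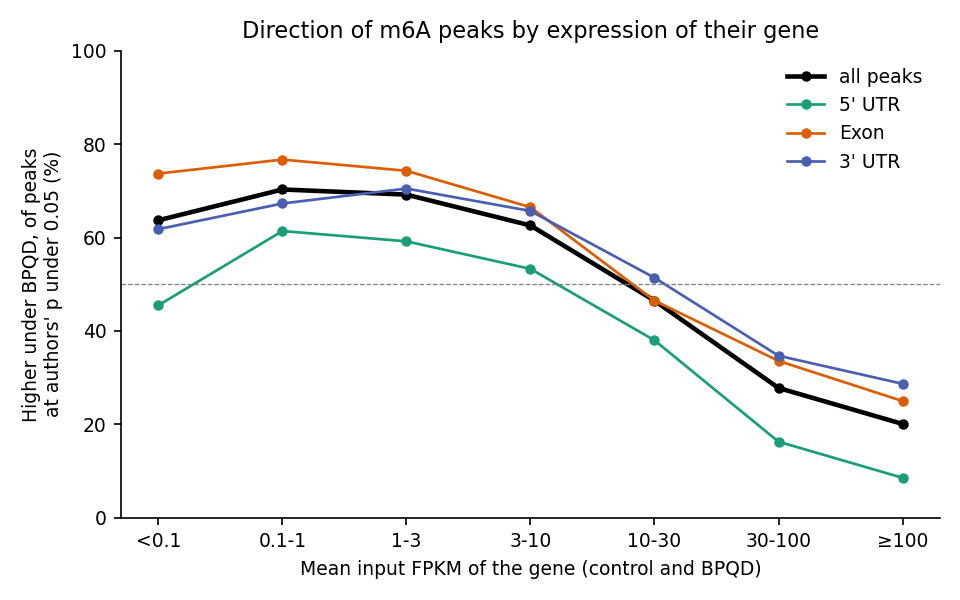
Percentage of peaks at the authors' p under 0.05 that were higher under BPQD (y axis) by mean input FPKM of the gene in 7 bins (x axis), for all peaks (black) and each class. The share for all peaks is 63.7% in the lowest bin, 70.3% in the next and 20.1% in the highest, and the 5' UTR line lies under the 3' UTR line throughout.

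By RefSeq gene type, 12142 peaks were in protein-coding genes, 506 in long noncoding RNAs and 458 in pseudogenes. Called peaks were higher in 55.9%, 71.8% and 73.8% of these. The noncoding RNAs and pseudogenes had median levels of 0.539 and 0.515 FPKM against 4.75 for protein-coding genes. Over all genes of 0.1 to 1 FPKM, 70.3% of called peaks were higher. The part of level in the shares by gene type was not tested. Pseudogenes share sequence with their parent genes, so reads at their peaks may belong to either.

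The peaks with the smallest p among higher calls were in nuclear noncoding RNAs. MALAT1, a nuclear speckle RNA that carries m6A in many cells, had 3 peaks, all called higher. Its peak at chr11:65502416-65503134 had a log2 fold change of 1.42 and a p listed as 0 in the authors' deposited table, and the peaks upstream had 0.526 and 0.282. MALAT1 input was 51.5, 50.8 and 52.1 FPKM in control libraries and 69.6, 171 and 71.0 under BPQD. All BPQD libraries lay above all controls, replicate 2 far above the others, and the limma log2 difference of 0.87 ± 0.31 (SE) did not pass the test (adjusted p = 0.0555).

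NEAT1, the RNA scaffold of paraspeckles, had 5 peaks, all called higher, of which 4 were a pair of near-identical entries each. In the authors' deposited table the peaks in the first part of the gene had log2 folds of 0.167 to 0.174, and the one at chr11:65428191-65428791, in the part present only in the long isoform, had 3.81 (p = 1.26e-86). NEAT1 input was 3.12, 4.25 and 3.43 FPKM in control libraries and 9.0, 13.3 and 14.4 under BPQD. The groups did not overlap, and NEAT1 input rose (log2 difference 1.51 ± 0.31 SE, limma adjusted p = 0.00559).

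Other higher peaks of small p were in protein-coding genes. CAV1, the coat protein of caveolae, had a 3' UTR peak at chr7:116560465-116560824 with a log2 fold of 0.737 in the authors' deposited table. CAV1 input was 70.0, 38.1 and 74.7 FPKM in control and 47.8, 44.0 and 33.9 under BPQD, groups that overlapped (limma adjusted p = 0.151). FBXO22, a substrate adaptor of a ubiquitin ligase, had 6 peaks at its 3' UTR, 5 called higher and 1 lower, with folds from -0.275 to 1.53 in the authors' deposited table, and 5 of the 6 overlapped another. BTBD2 had 3 overlapping peaks with log2 folds of 1.75 to 1.92 in the authors' deposited table, but all 3 lay in an exon of another gene than the one listed.

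The lower peaks of smallest p were in abundant mRNAs. EIF3C, a subunit of translation initiation factor eIF3, had a 5' UTR peak spanning 31896 bases at chr16:28688768-28720663 with a log2 fold of -2.42 and a p listed as 0 in the authors' deposited table, and an exon peak at -0.722. EIF3C has a near-identical copy, EIF3CL, and reads of the copies may be split between them, so its values are uncertain. Its input was 45.1, 49.1 and 47.7 FPKM in control and 55.0, 54.3 and 57.0 under BPQD, with all BPQD libraries above (0.23 ± 0.04 SE, limma adjusted p = 0.00279).

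The next were in genes for RNA-binding and other housekeeping proteins. RPL19, a ribosomal protein, had a peak of -0.411 in the authors' deposited table, NCL, the nucleolar protein nucleolin, one of -0.284, and HNRNPA2B1, a nuclear m6A reader, one of -0.194. FTH1, the ferritin heavy chain, stood at -0.189 in the authors' deposited table, the tropomyosin gene TPM2 at -0.296, NDUFS5 of respiratory complex I at -0.361 and the G protein gene GNAS at -0.480. All 4 TPM2 peaks were called lower. Input of NCL was 104, 103 and 106 FPKM in control and 156, 147 and 152 under BPQD, so its message rose (0.53 ± 0.03 SE, limma adjusted p = 1.58e-05) while its peak was called lower. HNRNPA2B1 likewise had 162, 158 and 164 FPKM in control and 219, 216 and 219 under BPQD (0.43 ± 0.04 SE, limma adjusted p = 0.000107). For GNAS the input fell, from 54.0, 53.8 and 52.6 FPKM to 46.5, 47.3 and 48.1 (-0.17 ± 0.03 SE, limma adjusted p = 0.00140).

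Peaks on mitochondrial DNA were few, in genes of the respiratory chain and ATP synthase. There were 9, in 8 genes, and all 9 had folds below 0, with 8 called lower, from -0.163 (MT-ND2) to -0.433 (MT-ND4L) in the authors' deposited table. Of all peaks 27.1% were called lower, and in genes of 10 to 30 and 30 to 100 FPKM, the levels of most of these, 46.5% and 27.8% of called peaks were higher. MT-ND4L input was 35.5, 35.9 and 38.8 FPKM in control and 53.7, 50.1 and 52.7 under BPQD, with no overlap (0.50 ± 0.05 SE, limma adjusted p = 0.000126). MT-ND4 also rose (0.35 ± 0.04), while MT-ND1 (-0.06 ± 0.08) and MT-ND3 (-0.22 ± 0.11) did not pass. MT-ND2 was listed at 0 in control replicate 1 and at 22.0 and 21.5 FPKM in the other controls.

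Most genes with a peak, 6040 (63.7%), had 1. The other 3440 genes (36.3%) had at least 2 and held 8863 peaks (59.5%). Overlapping entries were counted separately, and 1142 overlapping pairs were listed for the same gene. Some of these genes thus hold 1 site entered more than once. EPPK1, the epithelial cytolinker epiplakin, had 13, of which 12 overlapped another peak. TTN, the titin gene, had 11 peaks at a mean of only 0.157 FPKM, with 6 called higher and 1 lower, but 4 of the 11, with 3 of the 6 higher ones, lay in exons of another gene. SPG7, a mitochondrial protease, had 11 peaks, 7 called and all of these higher. UGT1A6, a drug-conjugating enzyme whose exons are shared among the UGT1A genes, had 10 at 0.413 FPKM, with 2 called, 1 of them in an exon of another gene, and MBP had 10 at 0.671 FPKM. AHNAK, a giant scaffold protein, had 9 peaks with 6 called, all lower (-0.0281 to -0.243 in the authors' deposited table), CSNK1D, casein kinase 1 delta, had 9 with 7 called higher and 1 lower, 7 of the 9 overlapping another and 2 of the higher ones in an exon of another gene, and the kinesin light chain gene KLC1 had 9 with 2 higher and 3 lower. In all, 9 genes had 9 peaks, and these 3 came first by gene ID.

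Of 2008 genes with at least 2 called peaks, 819 (40.8%) had all of them higher, 527 (26.2%) all lower and 662 (33.0%) peaks in both directions. Overlapping entries of the same site are included, which raises the counts of genes with all peaks in 1 direction. Counts of genes without such entries are not given here. For 654 genes with a called peak at each end, the 5' UTR was lower and the 3' UTR higher in 179 (27.4%), the reverse held in 69 (10.6%), both were higher in 187 (28.6%) and both lower in 219 (33.5%). METAP2, a methionine aminopeptidase, had a 5' UTR peak of -0.275 and a 3' UTR peak of 0.255 in the authors' deposited table. DDX23, a splicing helicase, had -0.377 at the 5' UTR, -0.186 in exon 7 and 0.180 at the 3' UTR in the authors' deposited table. TM4SF1, a cell-surface tetraspanin-like protein whose start is printed above, went the other way, with 0.204 at the 5' UTR and -0.201 at the 3' UTR in the authors' deposited table. RACK1, a ribosome-bound scaffold, had 0.525 and 0.366 at overlapping 5' UTR peaks and -0.116 at the 3' UTR in the authors' deposited table. The 0.366 peak runs to chr5:181257567, outside the annotated gene, which reaches chr5:181248096. SCAF11 had 0.551 at the 5' UTR with -0.187 and 0.321 in exon 11 in the authors' deposited table. TM4SF1 input rose from 138, 135 and 136 FPKM to 184, 181 and 181 (0.42 ± 0.02 SE, limma adjusted p = 3.32e-06), whereas DDX23 input overlapped between groups (-0.01 ± 0.03).

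Genes of the m6A pathway carried peaks of their own. Of the 8 writer complex genes 7 had a peak, and of their 13 peaks 12 were called, 11 higher and 1 lower, where 64.8% of all peaks were called and 58.1% of the called ones were higher. The median log2 fold of these 13 was 0.236, against 0.159 over all peaks. METTL3, the catalytic subunit, had a 5' UTR peak over its start at 0.637 (p = 0.000309 in the authors' deposited table). RBM15, an adaptor of the complex, had 0.203 at the 5' UTR and 0.706 at the 3' UTR in the authors' deposited table, and its paralog RBM15B had 0.130 and 0.652. CBLL1, the subunit also named HAKAI, had 0.663 in an exon and 0.126 at the 3' UTR, VIRMA had 0.277 and -0.229 in neighbouring exons and 0.275 at the 3' UTR, and ZC3H13 had 0.236, all in the authors' deposited table. WTAP had 0.122 at the 3' UTR and, not called, -0.290 at the 5' UTR in the authors' deposited table. METTL14 had no peak.

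Input levels of the writers were compared by limma, in which 5384 of 12224 genes (44.0%) were called, 2524 (20.6%) higher and 2860 (23.4%) lower. Of the called genes 46.9% were higher, or 58.3% with FPKM rescaled to TPM, so no balance of rises and falls is read from them. METTL3 was at 6.52, 6.57 and 6.79 FPKM in control and 7.91, 8.06 and 7.54 under BPQD, all BPQD libraries being higher (0.21 ± 0.06 SE, limma adjusted p = 0.0168). That call was lost without control replicate 1 (adjusted p = 0.0508) or BPQD replicate 2 (adjusted p = 0.0546), in a limma range of 0.19 to 0.24 over the libraries left out. METTL14 was at 1.56, 1.54 and 1.59 FPKM in control and 2.39, 3.18 and 2.73 under BPQD (0.55 ± 0.11 SE, limma adjusted p = 0.00472). RBM15 (0.44 ± 0.19) and CBLL1 (0.83 ± 0.35) did not pass in this fit, which includes the TiO2 inputs, although their groups did not overlap. With only the 6 control and BPQD libraries both passed (limma adjusted p = 0.00833 and 0.0135). Of the 8 writers 5 rose, METTL3, METTL14, WTAP, VIRMA and ZC3H13, and none fell. WTAP lost its call without control replicate 3 (limma adjusted p = 0.0529) or BPQD replicate 1 (limma adjusted p = 0.0528).

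Among the other methyltransferases METTL16, which methylates U6 and the MAT2A message, had overlapping entries of 1 3' UTR peak, both called higher (0.421 and 0.418 in the authors' deposited table). PCIF1, the m6Am writer, had an exon peak that was not called, and its input fell from 13.3, 13.1 and 13.9 FPKM to 9.57, 8.81 and 9.21 with no overlap (-0.50 ± 0.04 SE, limma adjusted p = 5.11e-05). Of the erasers, ALKBH5 had a 5' UTR peak called lower (-0.259 in the authors' deposited table) that begins upstream of the annotated gene, at chr17:18178332. An overlapping entry that begins at the annotated gene start, chr17:18183078, was not called (-0.0962, p = 0.0676 in the authors' deposited table). ALKBH5 input fell, from 32.8, 32.8 and 34.9 FPKM to 28.5, 29.1 and 28.6 (-0.21 ± 0.03 SE, limma adjusted p = 0.000846). The FTO peak was not called, and FTO input overlapped between groups.

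Of 21 peaks in 13 of 15 reader genes, 17 were called, 6 higher and 11 lower, with a median of -0.178 beside 0.159 over all peaks, of which 37.7% were called higher and 27.1% lower. Of the 11, 4 were in YTHDC1 alone, and HNRNPA2B1, EIF3A and HNRNPC lie at levels where 20.1% to 27.8% of called peaks were higher. YTHDC1, the nuclear YTH reader, had 4 peaks, all called lower, from -0.178 to -0.246 in the authors' deposited table. Its input was 10.9, 9.41 and 8.98 FPKM in control and 13.8, 15.9 and 16.3 under BPQD, with no overlap (0.60 ± 0.08 SE, limma adjusted p = 0.000618). YTHDF2, the reader that recruits decay enzymes, had a 5' UTR peak of 0.125, YTHDC2, an RNA helicase, a 3' UTR peak of 0.661, and YTHDF3, -0.515 at the 5' UTR and 0.319 at the 3' UTR, all called in the authors' deposited table. The YTHDF1 peak was not called. IGF2BP3, which stabilizes bound mRNA, had an exon peak of 1.09, another of -0.414 and a 3' UTR peak of -0.128 in the authors' deposited table. In the input, 8 of the 15 readers rose and 1, IGF2BP2, fell (10 and 1 with TPM), where 20.6% and 23.4% of all genes did. Among the 8, HNRNPC (0.21 ± 0.06), lost its call with the replicate block (limma adjusted p = 0.0510) and without control replicate 3 or BPQD replicate 1 or 3 (0.15 to 0.20). Whether writers and readers differ in their peaks was not tested.

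**Figure D5:**
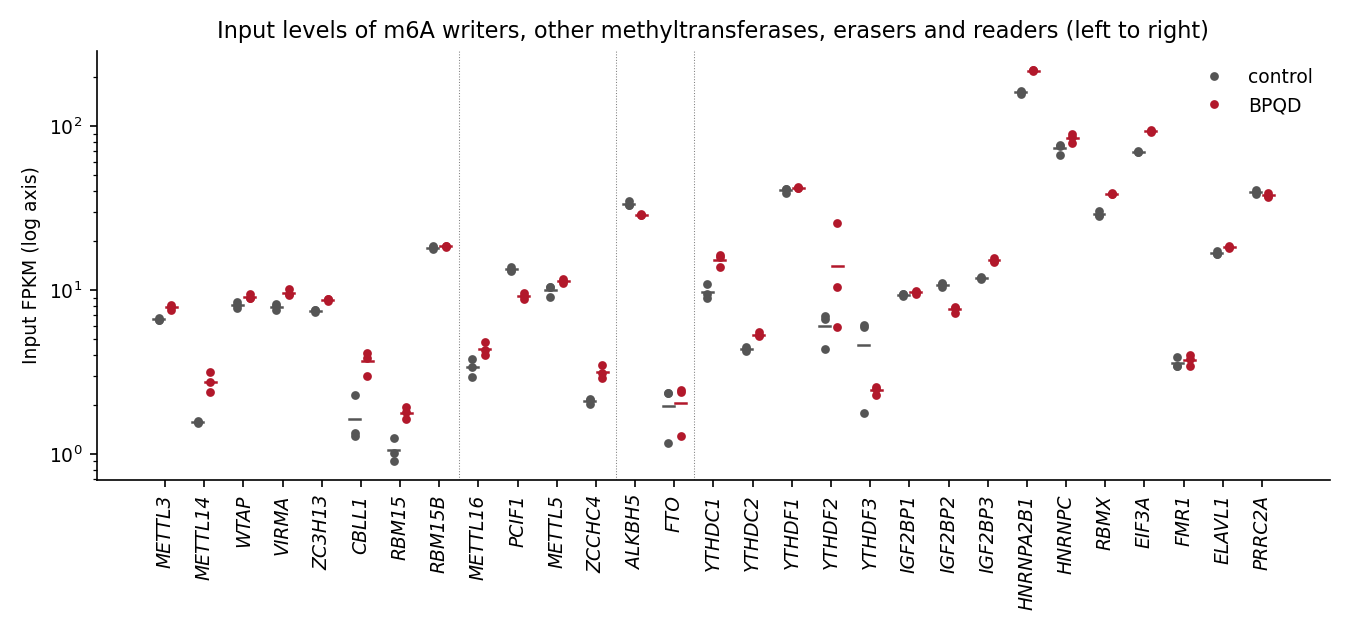
Input FPKM (log axis) of each m6A writer, other methyltransferase, eraser and reader gene, 3 control (grey) and 3 BPQD libraries (red) as points with the group mean as a line. METTL3, METTL14 and YTHDC1 lie higher under BPQD and PCIF1 and ALKBH5 lower with no overlap, while FTO overlaps.

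Called peaks of other pathways are given as counts, to be read beside the 58.1% higher among all called peaks and the shares by level above. No difference between lists was tested. Epithelial-mesenchymal transition had 9 peaks higher and 2 lower. Its higher peaks included the transcription factor ZEB1 (0.558 at the 5' UTR, where its other peak was called lower at -0.698), SMAD3, which relays TGF-beta signals (0.470 and 0.791 at the 3' UTR), and the matrix protein FN1 (2.10 in exon 41) in the authors' deposited table. Growth factor signalling had 16 higher and 5 lower, among them the 3' UTR peaks of the receptors EGFR (0.336) and MET (0.227) in the authors' deposited table. MET input rose, from 29.7, 29.5 and 29.6 FPKM to 37.7 in each BPQD library (0.34 ± 0.02 SE, limma adjusted p = 3.46e-05), and EGFR input rose by 0.19 ± 0.02.

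DNA repair had 14 peaks higher and 6 lower. They included XRCC3 (1.02 at the 5' UTR) and XRCC2 (0.233), both of homologous recombination, MSH6 of mismatch repair (0.447) and, called lower, the end-joining protein XRCC5 (-0.356), in the authors' deposited table. XRCC3 and MSH6 each had 2 overlapping entries, all counted among the 14. The XRCC3 peak also lies within the overlapping gene KLC1 and ends where KLC1 ends, at chr14:103714249. No strand is given, so the gene of this peak is uncertain. XRCC3 input overlapped between groups (0.05 ± 0.13), and XRCC2 input rose by 0.47 ± 0.07 (limma adjusted p = 0.00118). Of the 18 repair genes 10 rose in the input and none fell (12 and none with TPM), where 20.6% of all genes tested rose and 23.4% fell.

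The unfolded protein response and ATF4 list had 5 peaks higher and 12 lower. The lower ones included the chaperones CALR (-0.130 at the 3' UTR) and HSP90B1 (-0.147 at the 5' UTR) and ATF4, the transcription factor of the stress response (-0.280), in the authors' deposited table. HSP90B1 input was 161, 161 and 160 FPKM in control and 241, 236 and 237 under BPQD (0.56 ± 0.05 SE, limma adjusted p = 0.000118), and ATF4 and CALR inputs rose by 0.36 ± 0.02 and 0.32 ± 0.06. In this list 9 of 16 genes tested rose and 1 fell (10 and 1 with TPM), beside 20.6% and 23.4% of all genes tested.

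NRF2 and glutathione had 5 peaks higher and 9 lower, with the pentose phosphate enzyme TKT at -0.288 in the authors' deposited table. The sulfiredoxin SRXN1 had overlapping entries of 0.178, within the gene, and 0.193, which runs outside it. The p53 targets had 5 higher and 7 lower, with a median log2 fold of -0.275 over all their peaks. Their higher peaks of smallest p were those of the glycolysis regulator TIGAR (0.608 and 0.605 in overlapping entries) and the p53 antagonist MDM2 (0.226) in the authors' deposited table. Both TIGAR entries are counted among the 5, and 2 of the 3 MDM2 peaks overlapped. DDB2 had 1 peak called higher and 1 called lower. G2/M genes had 4 higher and 6 lower, with TOP2A, topoisomerase II alpha, at -0.432, and CENPF, a kinetochore protein, at -0.350 at its start, 0.0659 in exon 11 and -0.282 at its 3' UTR in the authors' deposited table. G1/S and replication had 8 and 9, autophagy and lysosome 7 and 10, the BCL2 family 1 and 4, ribosomal proteins 2 and 1, and NF-kB and cytokines 1 and 3. In the input, 0 of 20 p53 targets rose and 8 fell (0 and 7 with TPM), and 0 of 13 BCL2 family genes rose and 5 fell (0 and 5). Of 22 autophagy and lysosome genes 1 rose and 8 fell (6 and 7 with TPM), and of 22 G2/M genes 13 rose and 0 fell (17 and 0). Of all genes tested 20.6% rose and 23.4% fell. NFKBIA, the inhibitor of NF-kB, had a 5' UTR peak of -1.02 (p = 3.16e-06 in the authors' deposited table), and its input fell from 15.9, 15.0 and 15.1 FPKM to 9.96, 10.6 and 9.42 (-0.57 ± 0.05 SE, limma adjusted p = 0.000122). The apoptosis effectors BAX (-0.337) and BAK1 (-0.415) had lower 3' UTR peaks in the authors' deposited table, and their inputs fell by 0.36 ± 0.04 and 0.27 ± 0.03 on the log2 scale.

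Genes with a called peak and the largest called input change were mainly noncoding. LINC02595 had an exon peak of 0.866 in the authors' deposited table, and its input was 1.01, 0.768 and 0.760 FPKM in control and 5.04, 5.15 and 4.88 under BPQD (1.71 ± 0.09 SE, limma adjusted p = 1.32e-05). CASC19 had exon peaks of 1.29 and 0.228 in the authors' deposited table with an input change of 1.51 ± 0.25. The clone-named genes AC122718 (peak at chr5:61347126-61347716, 2.24) and AC006111 (peak at chr16:3650636-3651703, 1.02), each a name that 2 gene IDs share, had higher peaks in the authors' deposited table and input changes of 1.69 ± 0.11 and 1.47 ± 0.09. PXDC1 was the exception, with a 3' UTR peak of -0.147 in the authors' deposited table. Its input fell from 17.4, 17.1 and 16.4 FPKM to 4.69, 6.23 and 5.26 (-1.50 ± 0.34 SE, limma adjusted p = 0.00940). In the TiO2 inputs PXDC1 stood at 6.94, 19.9 and 19.5 FPKM, so its level also varied widely within 1 group.

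Across genes, m6A and input moved together only weakly. With 1 peak per gene, that of smallest p, 5355 of 6582 genes with at least 1 FPKM had a called peak, and in 3002 of these (56.1%) the peak and the input log2 ratio had the same sign. The median input log2 ratio was 0.0415 for 3007 genes with a higher peak and -0.0649 for 2348 with a lower one. Pearson's r was 0.0895 and Spearman's rho 0.130 over the 6582 genes. These describe genes of the same libraries, which are not independent, and how the authors set the peaks against input was not stated in the sources used here. By limma, input was called higher in 24.3% and lower in 18.7% of 2986 genes with a higher peak, and in 21.2% and 31.7% of 2346 genes with a lower peak.

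The peaks of both materials were set side by side by position. At least 1 base of 7398 BPQD peaks (49.6%) lay in a TiO2 peak, as did at least 1 base of 7387 TiO2 peaks (57.3%) in a BPQD peak, and 2390 peaks (16% and 18.5%) had identical ends. The TiO2 table had 8258 called peaks (64.1%), 5193 (40.3%) higher and 3065 (23.8%) lower. The comparisons share their controls, so no likeness between their folds is read from this.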

How the data were processed

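Members and gene lists were chosen with earlier results of these data known. Libraries were grouped by their titles. Peaks came from a table in which, per the file headers, the authors give a log2 fold change of m6A and its p-value, with a log10 FDR used here as a score. The peak caller, the pooling of replicates, the strand and the depth were not in the sources used here. Expression is FPKM for 36576 genes in 9 input libraries, per the file headers, and the authors' FPKM in the peak table was identical to it. The submitters' processing notes name HISAT2, StringTie 1.3.0 and the mouse build mm10. The gene IDs and positions are human, and coordinates are read as GRCh38. The authors' width and distance to the start site are in bases, and the deposited log2 ratio of expression was used to set peaks beside input. The authors' deposited p-value and q-value of expression were not used.

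Input was tested two-sided with limma 3.58.1 in R 4.3.3 on log2(FPKM + 1), with a trend, for 12224 genes whose mean over 9 libraries was at least 1 FPKM. BPQD was set against control and p adjusted by Benjamini-Hochberg over all genes, called under 0.05, and fold changes are on this scale, which understates low genes. The fit held all 9 input libraries, so the TiO2 libraries entered the estimate of spread. Values are given as differences ± SE. On simulated data the fit was tested before use. Named items were the 8 higher and 8 lower peaks of smallest p in genes of at least 1 FPKM and the 8 genes with most peaks. To these were added the 3 widest and 3 narrowest peaks and the 2 called peaks of smallest p per class. Of genes with called peaks in both directions, the 5 whose larger p was smallest were named. The rest were the 6 genes with the largest called input change, up to 4 called peaks of smallest p per list and the m6A genes. A few items named by the rule are left out. Mitochondrial peaks were chosen after their values were seen. Of the peaks, 1 was a repeated entry and 2490 (16.7%) overlapped another. Gene names of 13145 peaks matched RefSeq. Peaks were analysed in Python 3.11.15 with pandas 2.3.3, numpy 2.4.6, scipy 1.17.1 and matplotlib 3.10.9. Alternatives covered thresholds, widths, overlaps, pseudocount, filter, scaling, a replicate block and each library left out.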

Additional observations from a re-analysis of the deposited data

How the results depend on the processing

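At p under 0.01 or an FDR under 0.05 there were 2683 and 2633 lower peaks in place of 4045, and 59.4% and 59.6% of called peaks were higher. With peaks of at most 5000 bases 47.9% lay at the 3' UTR, 21.1% at the 5' UTR and 29.9% were wider than 1000 bases. Among called peaks 50% lay at the 3' UTR and 49.0% were wider than 1000 bases. At p under 0.01, 333 genes had called peaks in both directions. Overlap with TiO2 peaks was 42.2% of BPQD peaks when 50% of both was required and 16% with identical ends. Chosen after seeing the data, leaving out overlapping, misassigned exon or mitochondrial peaks left 57.6%, 57.2% and 58.2% of called peaks higher.

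Leaving out each library gave 4685 to 5286 called genes in the input, 2172 to 2476 higher and 2463 to 2811 lower, and 16 to 20 of the 29 m6A genes. FTO (0.05) reversed to -0.16 without control replicate 2, -0.06 without BPQD replicate 1 and -0.04 without BPQD replicate 2, ranged up to 0.24 without BPQD replicate 3, and never passed. The cause was not tested. WTAP lost its call without control replicate 3 or BPQD replicate 1, METTL16 without BPQD replicate 3, and HNRNPC in 6 settings. CBLL1 and RBM15 passed with the 6 libraries compared or without TiO2 replicate 2, and YTHDF2 without BPQD replicate 1 (1.35). With TPM, RBM15B, METTL5, YTHDF1 and IGF2BP1 passed, and 22 of the m6A genes were called in place of 18. METTL5 also passed without TiO2 replicate 3. Deviations of same-numbered control and BPQD libraries correlated at -0.0442 to 0.00544, so the numbers were not used as pairs. With the replicate block 4996 genes were called, 2352 higher and 2644 lower, and 17 of the m6A genes. Depth per library is unknown, so which peaks missed the threshold for lack of reads cannot be told.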
